A study of Drosophila melanogaster with 6 samples.

Results

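Uro, NaPi-T, ZnT35C, Irk1, Irk2, Irk3, Drip and Prip are 8 genes of the fly's renal system, with roles in transport and urate breakdown. They were taken from a list of symbols, and all 8 of them were found by FlyBase identifier among the 16942 genes of the count files. Messenger RNA had been sequenced, in 50 nt reads, from wild-type Drosophila melanogaster males of the Dahomey strain. The males grew up at 100 larvae to a vial, were kept 10 to a vial after eclosion and, from the age of 1 day, lived singly for 5 days. All 3 pools came from males exposed to rivals, and no unexposed males are analysed here. Each held 40 body parts: abdomens after 2 h of exposure, heads with thoraces after 2 h, or heads with thoraces after 26 h. RNA of a pool was sequenced as 2 technical portions, referred to as split libraries 1 and 2. A group is therefore a single pool of flies, and differences between groups were not checked on separate flies.

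Malpighian tubules are the insect kidney. They are blind-ended tubes lying in the abdomen, where a proton pump on the luminal face of principal cells drives secretion of potassium, while stellate cells pass chloride and water. Tubules also excrete nitrogen as urate and its oxidation products, store metal ions, and carry organic solutes out of the haemolymph. Uro encodes urate oxidase, the enzyme that oxidises urate, and is a classical tubule-restricted gene. NaPi-T encodes a sodium-dependent phosphate cotransporter, and ZnT35C a zinc transporter of tubule cells. Irk1, Irk2 and Irk3 encode inwardly rectifying potassium channels, and Drip and Prip encode aquaporins, the water channels.

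In the BDGP6.54 annotation Uro lies at 7780085 to 7781415 on 2L, ZnT35C at 15228728 to 15247714 on 2L and Irk3 at 18711071 to 18713748 on 2L. Irk1 lies at 23168317 to 23185642 and Irk2 at 23513617 to 23519445 on 3R. NaPi-T lies at 14842720 to 14845874 on 2R, and Drip (11411203 to 11429645) and Prip (11436243 to 11442216) are neighbours on 2R, 6597 bp apart with 1 annotated gene, lncRNA:CR43771, between them. Uro is the most compact of the 8, with a span of 1331 bp, whereas Irk1, Drip and ZnT35C span 17326, 18443 and 18987 bp. The deposited counts carry no coordinates, so these positions serve only for lengths and overlaps.

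Of the 8 genes, 3 overlap another gene that has counts. Irk3 shares 227 bp of exon with Grip71 on the opposite strand, which held 565 counts in the abdomen pool against 2190 for Irk3. Drip contains CG7763, which shares 0 bp of exon with it, with 17 to 52 counts per pool against 3939 to 8393 for Drip, and an annotated opus transposable element of 3094 bp that the count files do not list. Irk1 shares 63 bp with cnc on the opposite strand, which was more abundant than Irk1 in every library, and also holds CG46310, for which the files list no counts. With the counts of Grip71 and CG7763 subtracted, an alternative chosen after seeing the data, the log2 ratio of Irk3 between abdomen and head-thorax was 1.76 in place of 1.75 and that of Drip stayed at −1.22. The part of cnc, CG46310 or the transposon in the counts of Irk1 and Drip was not tested.

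The libraries held 21070598 to 34217543 counts each. Levels are given in CPM, the count scaled for depth, here with library sizes adjusted by the trimmed mean of M values (TMM). The labelled body parts had the markers of their tissues. The 7 eye genes summed to between 80.9 and 87.8 CPM in the abdomen libraries and to between 10807 and 11812 CPM in those of head-thorax. The 11 testis genes summed to between 6845 and 6963 CPM in the former and to between 9.76 and 36.4 CPM in the latter. Midgut markers were in both parts, between 8139 and 8583 CPM in abdomen and between 6925 and 7497 CPM in head-thorax. In whole body parts, fewer cells of a type and less RNA per cell cannot be told apart.

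The split libraries of each pool gave close values for the 8 genes. None of the 24 gene-by-pool values differed at an adjusted p under 0.05 by a two-sided exact binomial test, where 2.19% of all genes tested did so in abdomen, 0.785% in the 2 h head-thorax pool and 0.529% in the 26 h one. At an unadjusted p under 0.05, where the share of all genes was not counted, there were 2 of them, Irk3 in abdomen and Uro in head-thorax after 2 h. The gap was widest for Uro in that head-thorax pool, which had 87 counts in the first library and 41 in the second, or 2.72 and 1.87 CPM, a 1.46-fold gap (unadjusted p = 0.0476, adjusted p = 0.632, exact binomial test).

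The body parts were compared first, at 2 h of exposure. Uro, NaPi-T, ZnT35C and Irk3 were higher in abdomen, by 3.37-fold to 21.8-fold, while Irk2 and Drip were lower there, by 2.17-fold and 2.34-fold. A call required an adjusted p under 0.05 (edgeR's quasi-likelihood test, Benjamini-Hochberg adjustment) together with a difference of 2-fold or more. By that rule 4 of the 8 genes were higher and 2 lower, where 35.6% of the 14694 genes tested were higher and 21.7% lower. Such p-values rest on the technical spread of split libraries, so they describe the pools and do not extend to the conditions.

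Uro had 1224 and 1829 counts in the abdomen libraries, 87 and 41 in those of head-thorax after 2 h, and 84 and 100 in those after 26 h. In CPM its level was 51.8 ± 0.0733 in abdomen, 2.30 ± 0.603 in head-thorax after 2 h and 3.08 ± 0.164 after 26 h (SD, n = 2 split libraries). Every abdomen library stood far above every head-thorax library, and the log2 ratio of abdomen to the 2 h head-thorax pool was 4.44 ± 0.09 SE (adjusted p = 3.48e-66, edgeR).

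NaPi-T had the second highest ratio of the 8. Its counts were 1601 and 2458 in abdomen, 138 and 90 in the 2 h head-thorax pool, and 273 and 287 in the 26 h pool. In CPM the means were 68.6 ± 1.41, 4.21 ± 0.151 and 9.40 ± 0.324, with no overlap between any pair of pools. The log2 ratio between the body parts was 4.02 ± 0.07 SE, a 16.2-fold difference.

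ZnT35C had 834 and 1213 counts in abdomen, 158 and 95 in the 2 h head-thorax pool, and 69 and 96 in the 26 h pool. Its mean CPM was 34.8 ± 0.616 for abdomen, 4.64 ± 0.432 for head-thorax after 2 h and 2.75 ± 0.448 after 26 h, again without overlap. The ratio between the body parts was 2.89 ± 0.08 SE on the log2 scale, or 7.39-fold. Irk3 followed with 835 and 1355 counts in abdomen, 363 and 229 in the 2 h head-thorax pool and 297 and 360 in the 26 h pool. It stood at 36.8 ± 2.20, 10.9 ± 0.646 and 11.0 ± 0.727 CPM, and its log2 ratio was 1.75 ± 0.07 SE, or 3.37-fold. The head-thorax pools overlapped for Irk3, and both lay below abdomen.

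The other potassium channels did not share this direction. Irk2 had 667 and 976 counts in abdomen, 1927 and 1329 in the 2 h head-thorax pool, and 1675 and 1744 in the 26 h pool, which is 27.9 ± 0.374, 60.5 ± 0.225 and 57.4 ± 2.37 CPM. Abdomen was the lowest pool, with a log2 ratio of −1.12 ± 0.05 SE. This call depended on scaling: the ratio was −0.97 with DESeq2 size factors, −0.91 with raw library totals and −0.97 by DESeq2's Wald test, each short of 2-fold. Over all genes, the median log2 ratio shifted by 0.14 with size factors and by 0.21 with raw totals.

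Irk1 was the most even of the 8 between the body parts at 2 h. It had 635 and 912 counts in abdomen, 905 and 668 in the 2 h head-thorax pool, and 1040 and 1206 in the 26 h pool. The 26 h pool stood at 37.6 ± 1.31 CPM. The level of 26.3 ± 0.700 CPM for abdomen was a little under the 29.4 ± 1.52 CPM for head-thorax after 2 h. The log2 ratio of −0.16 ± 0.06 SE (adjusted p = 0.00706, edgeR) was short of 2-fold, and its sign turned to 0.053 with raw library totals. The 3 Irk genes therefore differed in direction: Irk3 was higher in abdomen and Irk2 lower, under the scaling used, while Irk1 was not called.

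Both aquaporins were lower in abdomen, Drip past 2-fold and Prip not. Drip had 1557 and 2382 counts in abdomen, 4948 and 3445 in the 2 h head-thorax pool, and 3831 and 4236 in the 26 h pool. Its levels were 66.6 ± 1.20, 156 ± 1.63 and 135.3 ± 0.162 CPM, and the log2 ratio between the body parts was −1.22 ± 0.03 SE. That ratio was −1.08 with DESeq2 size factors, −1.02 with raw library totals and −1.08 by DESeq2's Wald test, each still past 2-fold. Prip had 361 and 519 counts in abdomen, 781 and 509 in the 2 h head-thorax pool, and 585 and 604 in the 26 h pool. That is 15.0 ± 0.388 CPM for abdomen, 23.8 ± 0.865 CPM for head-thorax after 2 h, and 20.6 and 19.3 CPM in the libraries after 26 h. The log2 ratio of −0.68 ± 0.07 SE (adjusted p = 1.71e-16, edgeR) was short of 2-fold, although the libraries of the 3 pools did not overlap. Counts of Drip relative to those of Prip were 4.31 and 4.59 in the abdomen libraries and between 6.34 and 7.01 in those of head-thorax.

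**Figure D1:**
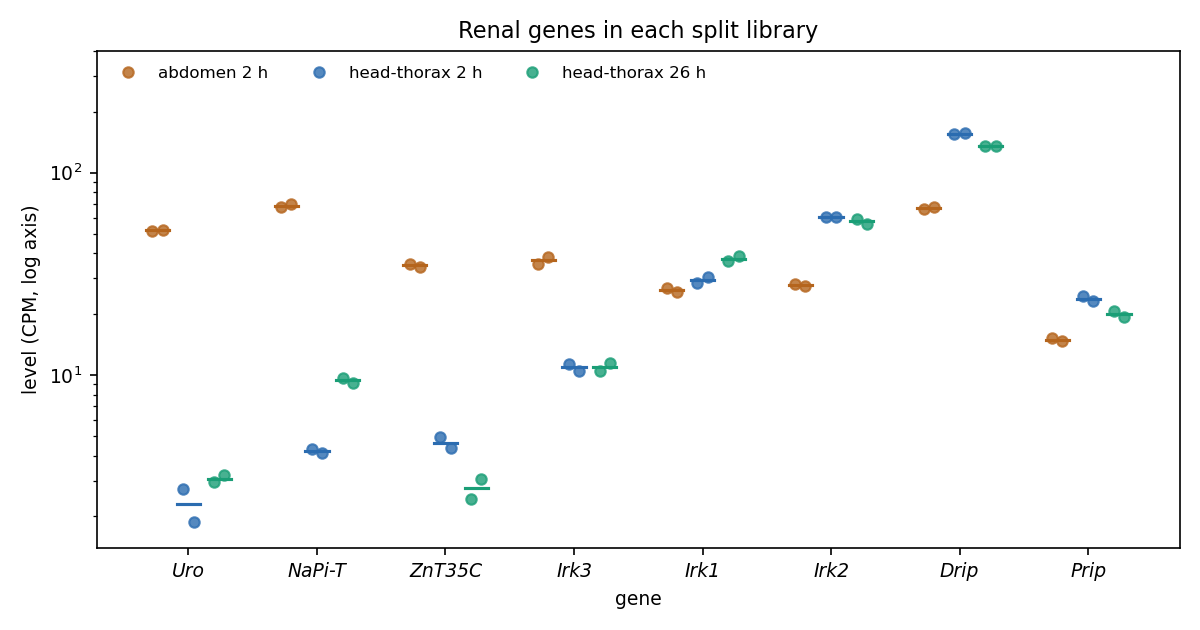
Level of each of the 8 genes in CPM on a log axis, with 1 point per split library and a bar at the mean of each pool. Uro, NaPi-T, ZnT35C and Irk3 are highest in abdomen, and Irk2, Drip, Prip and, by a small margin at 2 h, Irk1 are lowest there. NaPi-T separates the 2 head-thorax pools most, at 4.21 and 9.40 CPM.

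Levels of different genes were compared only per kb of annotated exon. In abdomen the order on this scale was Uro at 41.0 ± 0.0581 CPM per kb, Drip at 26.7 ± 0.481, NaPi-T at 25.8 ± 0.530, Irk3 at 17.6 ± 1.05, ZnT35C at 16.2 ± 0.287, Irk2 at 11.2 ± 0.150, Prip at 9.31 ± 0.241 and Irk1 at 5.02 ± 0.134 (SD, n = 2). No neighbours in that order had overlapping split libraries, but Drip and NaPi-T were separated by 26.3 against 26.2 CPM per kb at the closest, and Irk3 and ZnT35C by 16.8 against 16.4.

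After 2 h the head-thorax order was led by Drip at 62.4 ± 0.651 CPM per kb, followed by Irk2 at 24.2 ± 0.0902 and Prip at 14.8 ± 0.537. Irk1 (5.40 to 5.81 CPM per kb) and Irk3 (4.98 to 5.42) overlapped. The lowest genes overlapped in turn, ZnT35C at 2.17 ± 0.202 with Uro at 1.82 ± 0.478, and Uro with NaPi-T at 1.58 ± 0.0567. The urate oxidase gene thus had the highest level per kb in abdomen and was in the lowest group in head-thorax. After 26 h Drip, Irk2, Prip, Irk1 and Irk3 kept their order, and below them NaPi-T at 3.53 ± 0.122, Uro at 2.44 ± 0.130 and ZnT35C at 1.28 ± 0.209 CPM per kb followed, with no overlap between neighbours.

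**Figure D2:**
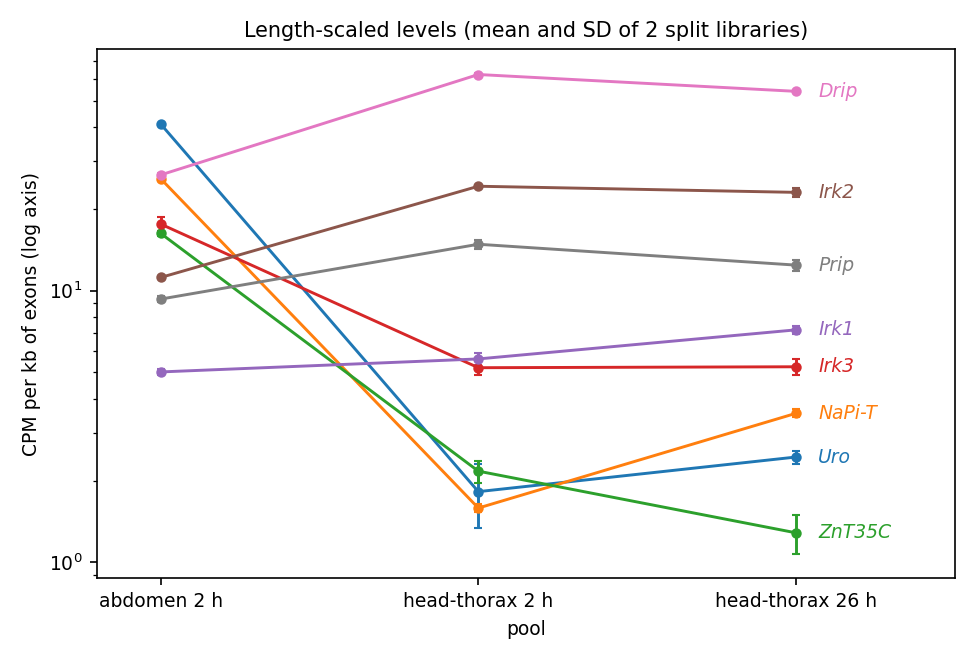
Mean level of each gene per kb of annotated exon on a log axis in the 3 pools, with bars for the SD of the 2 split libraries and a line joining the values of 1 gene. Between abdomen and the 2 h head-thorax pool Uro goes from 41.0 to 1.82, whereas Drip goes from 26.7 to 62.4.

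The genes called higher in abdomen were, by that call, lower in head-thorax, and their counts there were above 0 in every library. As a share of the abdomen level, the 2 h head-thorax pool held 4.59% for Uro (exact 95% counting interval 3.82% to 5.48%), 6.15% for NaPi-T (5.36% to 7.03%), 13.5% for ZnT35C (11.8% to 15.4%) and 29.6% for Irk3 (27.0% to 32.4%). These intervals cover counting error only. Genes of the male reproductive organs, which also lie in the abdomen, stood far lower on the same scale. The 11 testis markers were between 0.0586% and 0.235% of abdomen, and 9 of the 10 accessory gland markers were at up to 0.647%. The other one, Acp29AB, had 0 counts, which allows a share of up to 0.100%. The 10 midgut markers were spread from 3.17% to 182%, with a median of 64.0%. The part of abdominal tissue in the head-thorax values was not tested.

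The shares of these genes were not in 1 ratio to each other. Counts of ZnT35C relative to those of Uro were 0.681 and 0.663 in the abdomen libraries, 1.82 and 2.32 in head-thorax after 2 h, and 0.821 and 0.960 after 26 h. Uro relative to NaPi-T was at 0.765 and 0.744, at 0.630 and 0.456, and at 0.308 and 0.348 in the same order. In both ratios the libraries of the 3 pools did not overlap.

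**Figure D3:**
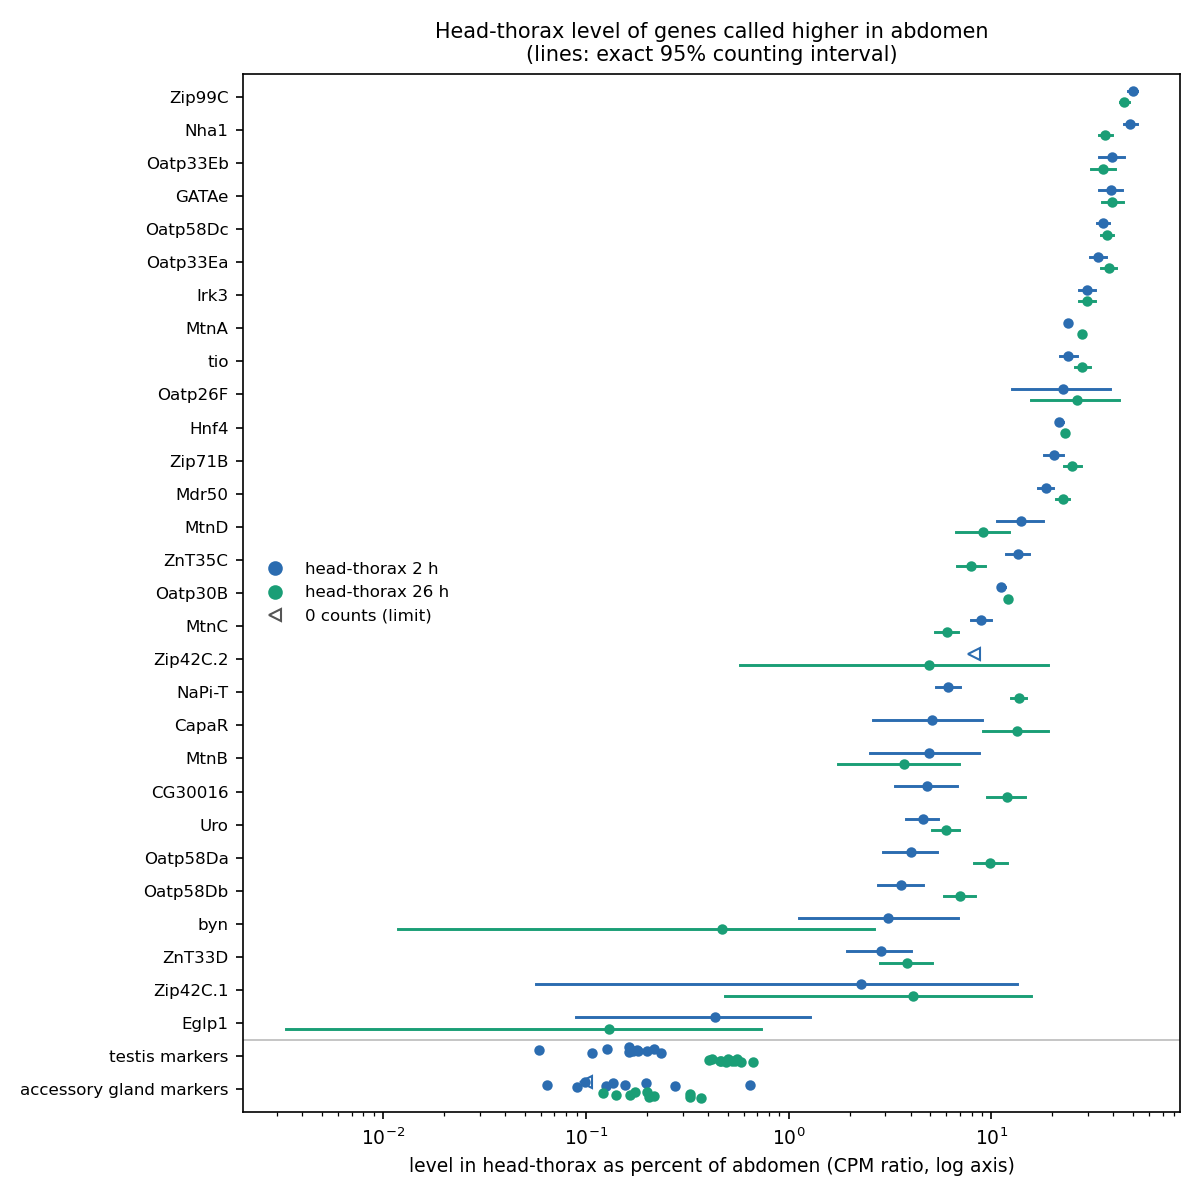
Level in each head-thorax pool as a percent of the abdomen level on a log axis, for all 29 members and renal list genes called higher in abdomen and, below the line, all 21 reproductive markers. Lines are exact 95% counting intervals and open triangles the limit of 0 counts. The genes above the line run from 0.131% for Eglp1, with 1 count, to 49.9% for Zip99C, and the reproductive markers from 0.0586% to 0.664%. The 2-fold rule that picked the genes above the line caps their 2 h shares, and the markers were not picked by it.

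The exposure times were compared next, within head-thorax, 26 h against 2 h, with 1 pool per time. NaPi-T was the only 1 of the 8 called, at 2.22-fold higher after 26 h, and none was called lower, where 6.21% of genes tested were higher and 1.5% lower. Its log2 ratio was 1.15 ± 0.11 SE (adjusted p = 2.82e-16, edgeR). Both libraries after 26 h, at 9.63 and 9.17 CPM, were above both after 2 h, at 4.32 and 4.11 CPM. When the test itself was set against a 2-fold difference, NaPi-T did not pass (adjusted p = 0.516, edgeR's glmTreat), and the exact counting interval of its ratio, 1.90 to 2.60, includes 2.

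Uro and ZnT35C, the other strongly abdomen-biased members, were not called. For Uro the log2 ratio of 26 h to 2 h was 0.38 ± 0.17 SE (adjusted p = 0.0610, edgeR), a 1.30-fold ratio with an exact counting interval of 1.03 to 1.64. The value turned on 1 library: it was 0.72 without split library 1 of the 2 h pool and 0.18 without split library 2. ZnT35C had a log2 ratio of −0.76 ± 0.14 SE (adjusted p = 6.31e-06, edgeR), 1.70-fold lower after 26 h, which is short of the 2-fold limit.

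Among the channels, Irk3 was at a ratio of 1.00 (counting interval 0.896 to 1.12) and Irk2 at 0.949 (0.904 to 0.995), and neither passed the adjusted threshold by edgeR (adjusted p = 0.998 and 0.124). Irk1 was 1.29-fold higher after 26 h (log2 ratio 0.37 ± 0.05 SE, adjusted p = 2.52e-09). Drip was lower by a log2 ratio of −0.20 ± 0.03 SE and Prip by −0.26 ± 0.06 SE. Without the 2-fold limit, 2 genes were higher at an adjusted p under 0.05, NaPi-T and Irk1, and 3 were lower, Drip, ZnT35C and Prip, where 19.7% of all genes tested were higher and 21.3% lower by that rule. These counts were 2 and 3 by DESeq2 as well, against 18.3% and 12.7% of genes. At an unadjusted p under 0.05, 3 were higher and 3 lower by either tool, against 23% and 24.2% of genes by edgeR and 19.3% and 13.3% by DESeq2.

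Reproductive markers were measured over the same interval. Of the 11 testis markers 10 were called higher after 26 h, against 6.21% of all genes tested, with a median log2 ratio of 1.51. Their summed level went from between 9.76 and 14.9 CPM to between 31.4 and 36.4 CPM. None of the 10 accessory gland markers was called by edgeR, with a median of 0.64, or by DESeq2. At an unadjusted p under 0.05 edgeR gave 3 of them higher and 1 lower, against 23% and 24.2% of all genes. The sum of these 10 markers was between 5.52 and 7.36 CPM after 2 h and between 7.93 and 11.6 CPM after 26 h. The part of abdominal tissue in the 26 h ratio of NaPi-T was not tested.

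Other genes of renal physiology were described from 8 lists with 81 genes in the files, 80 of them tested. Between abdomen and the 2 h head-thorax pool, 25 were higher and 16 lower. That is 31.3% higher and 20% lower, against 35.6% and 21.7% of all genes tested. The median log2 ratio was 0.02 against 0.06 for all genes. The shares are near the background, so the lists as a whole do not stand apart from other genes. Over the 44 list genes that overlap no other gene, 15 were higher and 9 lower.

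In urate and purine metabolism the steps around urate differed. CG30016, a predicted hydroxyisourate hydrolase acting after urate oxidase, had a mean of 13.7 CPM for abdomen, 0.642 CPM for head-thorax after 2 h and 1.64 CPM after 26 h. Its log2 ratio between the body parts, 4.36, was close to that of Uro. By contrast ry, the xanthine dehydrogenase that makes urate, was at 24.9 CPM in the abdomen pool against 50.3 CPM in the other, with a log2 ratio of −1.02. That call was lost with DESeq2 size factors (−0.87), with raw totals (−0.81), by DESeq2's Wald test (−0.88), when 2-fold was the null of the test (adjusted p = 0.273), and without split library 1 of the 2 h head-thorax pool (−0.94). The molybdenum cofactor genes mal (0.12) and cin (−0.60) were not called. cin shares 135 bp of exon with CG13377, which had 561 counts in abdomen and 1120 in the 2 h head-thorax pool. cin itself had 750 and 1037 in the same pools. bw, a pigment precursor transporter of the eye, was lower in abdomen (−1.32), and it overlaps mi by 456 bp of exon. The other pigment transporters of the list, st (0.99) and w (0.61), named after their values were seen, went the other way, short of 2-fold. The span of w overlaps that of kirre, with 18115 abdomen counts against 682 for w. That of st overlaps CG43373, with 3657 against 872 for st. Both overlaps have 0 bp of shared exon, and whether these genes share reads was not tested. st passed 2-fold with DESeq2 size factors (1.13), raw totals (1.19) and DESeq2's Wald test (1.13). It also did so without split library 2 of abdomen (1.02) or of the 2 h head-thorax pool (1.03).

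Of 17 ion transport genes 6 were lower in abdomen and 1 was higher (median −0.65). Over all genes tested, 21.7% were lower and 35.6% higher. The sodium pump subunits Atpalpha, at 662 against 2081 CPM, and nrv2, at 102 against 332 CPM, were lower by log2 ratios of −1.65 and −1.70, and the potassium-chloride cotransporter kcc by −2.13. nrv1, another pump subunit, was at −0.82, not called. The other lower genes, named after their values were seen, were Ncc69 (−1.56), Nhe3 (−1.60) and the chloride channel ClC-a (−1.10). ClC-a was short of 2-fold with DESeq2 size factors (−0.95), with raw totals (−0.89), by DESeq2's Wald test (−0.95) and without split library 1 of the 2 h head-thorax pool (−0.99). Nha1 was the higher one (1.04), but not when 2-fold was the null of the test (adjusted p = 0.154, edgeR's glmTreat).

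Among hormone receptors CapaR, the receptor of the diuretic Capa peptides in principal cells, was the 1 of 6 higher in abdomen. It had 114 and 144 counts there, 7 and 5 in the 2 h head-thorax pool and 18 and 17 in the 26 h pool, and a log2 ratio of 4.27. Dh44-R1 (−4.98) and Dh44-R2 (−1.65), receptors of the diuretic hormone Dh44, were lower, Dh44-R1 with 8 counts in the abdomen pool. Across all genes tested, 35.6% were higher and 21.7% lower. Dh44-R2 overlaps fdl by 536 bp of exon. Dh31-R (0.04) and TyrR (0.29) were not called.

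In the aquaporin family Eglp1 differed in direction from Drip and Prip. It had 756 counts in the abdomen pool and 3 in the 2 h head-thorax pool, a ratio of 230.2 with an exact counting interval of 78.5 to 1119. Eglp2 (−0.82) and Eglp4 (−0.95) were not called. Their spans overlap with 0 bp of shared exon, and their counts were close, 7849 and 7059 in abdomen. Whether they share reads was not tested. bib, a neurogenic member of the family, was lower (−1.73) and overlaps lncRNA:CR13130.

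Of 20 zinc transport and storage genes, 9 were higher in abdomen and 0 lower by edgeR (median 0.63). This compares with 35.6% and 21.7% of all genes tested. DESeq2's Wald test gave 10 higher and 0 lower, against 33.5% and 17.1% of all genes. At an unadjusted p under 0.05 with no fold limit, 7 were lower by edgeR, among them ZnT63C (−0.10) and Zip102B (−0.26), and 1 by DESeq2, against 43.7% and 32.7% of all genes. The metallothionein MtnA had means of 889 CPM for abdomen and 213 CPM for head-thorax after 2 h, a log2 ratio of 2.06. The other metallothioneins of the list, MtnC (3.49), MtnB (4.32) and MtnD (2.83), named after their values were seen, were also higher. Zip99C, a transporter of the ZIP family, was just past the limit at 79.7 against 39.9 CPM (1.00). Its call was lost without the filter on low counts (0.988), with mitochondrial genes left out (0.999), when 2-fold was the null of the test (adjusted p = 0.394, edgeR's glmTreat), without split library 1 of abdomen (0.998) and without either library of the 26 h pool (0.993 each). Of the 2 other phosphate transporters, NaPi-III was lower in abdomen (−3.63), opposite to NaPi-T, and Picot was at 0.37.

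Of 15 organic solute carriers 8 were higher in abdomen, against 35.6% of all genes tested. The blood-brain barrier transporter Mdr65 was the 1 lower (−2.09), against 21.7% of all genes. The higher ones included Oatp30B (3.15), which had 31894 abdomen counts and whose span overlaps that of CG31883, with 23869 counts and 0 bp of shared exon. Oatp58Da (4.62) and Oatp58Db (4.80 by edgeR), the latter named after its values were seen, had ratios close to that of Uro. Oatp58Da shares 45 bp of exon with CG30278, which had 2826 abdomen counts against 1247. Mdr50 (2.43), also named after its values were seen, was higher too. MRP (−0.38), Indy (0.0017) and Mdr49 (0.41) were not called.

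Of 9 regulators of tubule and hindgut development, 4 were higher and 3 lower, against 35.6% and 21.7% of all genes. Hnf4 (2.20) was at 15120 abdomen counts. Its span overlaps that of CatB, with 11922 counts and 0 bp of shared exon, and whether they share reads was not tested. The gene tio (2.06), a zinc finger gene, overlaps lncRNA:CR33987. byn, the hindgut determinant, had 211 counts in the abdomen pool and 6 in the 2 h head-thorax pool (4.95), and its span overlaps CG44837, with 0 bp of shared exon. GATAe, a factor of the endoderm, was at 1.37. tsh (−1.40), hth (−2.94) and caup (−3.57) were lower, and ct, which patterns the tubule primordium, was at −0.97, not called.

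Within head-thorax, 3 of the 80 list genes were called higher after 26 h and 0 lower by edgeR, against 6.21% and 1.5% of all genes. By DESeq2's Wald test 4 were higher and 0 lower, against 5.63% and 0.98% of genes. At an unadjusted p under 0.05 without a fold limit, 19 of 80 were higher and 24 lower by edgeR, where all genes gave 23% and 24.2%. By DESeq2 22 and 14 of 81 were, where all genes gave 19.3% and 13.3%. The 3 were CG30016 (log2 ratio 1.29), CapaR (1.38) and Oatp58Da (1.29), and Oatp58Db was at 0.96, short of 2-fold. CapaR was not called without split library 1 of the 2 h pool (adjusted p = 0.0974, edgeR) or of the 26 h pool (adjusted p = 0.0712), and none of the 3 passed when 2-fold was the null of the test.

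As a share of the abdomen level, CG30016 went from 4.84% after 2 h to 11.9% after 26 h and CapaR from 5.09% to 13.4%. Oatp58Da went from 4.04% to 9.91% and Oatp58Db from 3.58% to 6.97%. NaPi-T went from 6.15% to 13.6%, and Uro from 4.59% to 5.96%. ZnT35C moved the other way, from 13.5% to 7.97%, and Irk3 was at 29.6% and 29.7%. Other list genes with low shares went both ways, and those given here were named after their values were seen. ZnT33D was at 2.85% and 3.82%, MtnB at 4.92% and 3.70%, and byn at 3.11% with 6 counts and 0.469% with 1 count. The span of ZnT33D overlaps that of CG31760, with 0 bp of shared exon. CG31760 had 1207 and 1323 counts in the 2 h and 26 h head-thorax pools, against 33 and 49 for ZnT33D. Whether they share reads was not tested. Zip42C.1 was at 2.28% with 1 count and 4.12% with 2 counts. Zip42C.2 went from 0 counts to 4.94% with 2 counts. Both comparisons share the 2 h head-thorax pool.

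**Figure D4:**
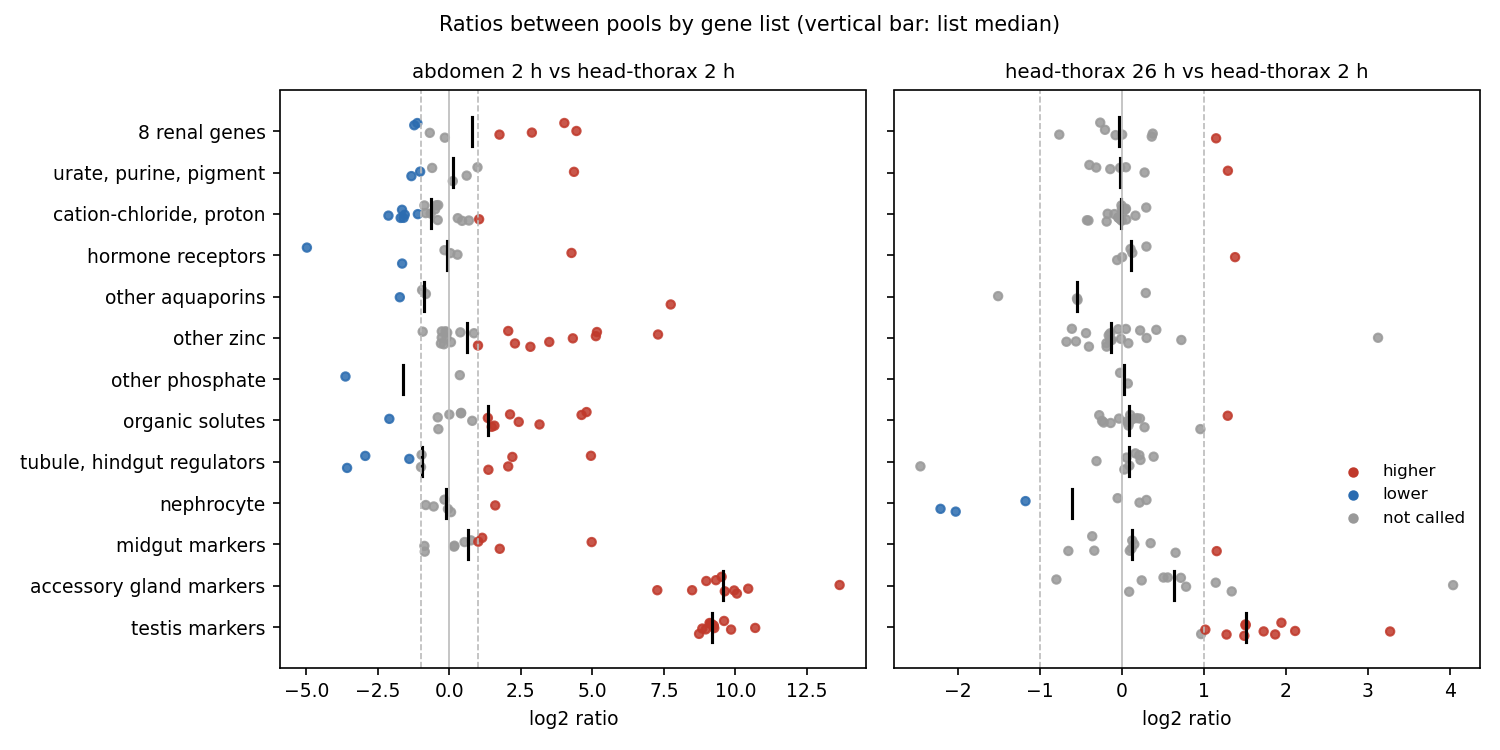
Log2 ratios of the 8 genes, the 8 other renal lists, nephrocyte genes and 3 marker lists, with 1 point per tested gene, coloured by call, a black bar at each list median and dashed lines at 2-fold. In the left panel the 8 genes run from −1.22 to 4.44; in the right panel NaPi-T is the one of them called, and testis markers lie to the right with a median of 1.51.

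The genes whose pattern over the 3 pools was most like that of each member were found by the Euclidean distance between their pairs of log2 ratios, among genes with 20 CPM or more in the highest pool and no overlapping gene. These are descriptions over 3 pools. Nearest to Uro were CG1971 (distance 0.17), CG43120 (0.28) and Vps13B (0.30). Nearest to NaPi-T were CG17751 (0.0098), with means of 22.9, 1.41 and 3.16 CPM for abdomen, head-thorax after 2 h and head-thorax after 26 h, then CG16904 (0.085) and CG9458 (0.086). Nearest to ZnT35C were MtnE (0.29), a metallothionein with means of 37.1, 4.30 and 2.91 CPM in that order, Act42A (0.43) and Rpt4R (0.45). The nearest genes of the other 5 members were at distances of 0.0047 to 0.075. They were Scox, Clbn and Spg7 for Irk1, Cmpk, Csp and PRL-1 for Irk2, and CG4377, Cpr and Ube3a for Irk3. Drip was nearest to CG17928, Gapdh2 and Srp54, and Prip to TfIIA-S, Syx13 and CG15098.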

How the data were processed

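Per the file headers and the values, the deposited tables give whole-number read counts for each FlyBase gene and leave out genes without any count. Which aligner, counter, build and annotation made them is not given in the sources used here. Symbols were taken from Ensembl's annotation of BDGP6.54, which held 16735 of the identifiers. The use of strand in counting is not stated either, so overlapping genes may share reads.

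The main model was edgeR 4.0.16 under R 4.3.3, fitted to all 6 libraries together (TMM scaling, filterByExpr, quasi-likelihood test, 3 residual degrees of freedom, technical coefficient of variation 1.63%), with Benjamini-Hochberg adjustment over 14694 genes. An SE is the log2 ratio divided by the square root of its F. Each CPM is a mean ± SD over 2 split libraries, a technical spread. For the split libraries, an exact binomial test was run on genes whose counts summed to 10 or more. Intervals are exact (Clopper-Pearson, 95%) on pool sums and cover counting error only. DESeq2 1.42.0 was an alternative. The steps were tested on simulated counts.

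The members and lists were chosen with earlier results of these data known. Named are the 8 members, up to 4 genes per list with the highest mean CPM, genes of a direction where 5 or fewer passed, the 3 nearest patterns per member and genes overlapping a member; others are marked as named after their values were seen. An overlap of one zinc list gene is not reported here.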

Additional observations from a re-analysis of the deposited data

How the results depend on the processing

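Each pool comparison was refitted under 14 alternatives. The members called higher in abdomen numbered 4 under every one, while the count lower in abdomen was 1 in place of 2 with DESeq2 size factors, with raw library totals and by DESeq2's Wald test, the lost gene being Irk2. When 2-fold was the null of the test (edgeR's glmTreat), which asks more than a fold limit does, the count of members higher at 26 h was 0 in place of 1 and that of the renal lists 0 in place of 3. Signs turned for Irk1 between the body parts with raw totals (0.053) and for Irk3 between the exposure times, whose ratio is near 0, with raw totals (−0.093), with the replicate block (−0.0048) and without 1 library (−0.068 to 0.077). Leaving out each library in turn kept the counts of members at 4, 2, 1 and 0. Those of the renal lists were then 24 to 26 higher and 15 to 17 lower in abdomen, and 2 to 4 higher and 0 lower at 26 h. The cause of these moves was not tested. The split numbers did not pair the libraries (correlation of split differences between pools from −0.06 to 0.04 over 7459 genes), and the replicate block changed no call among the members. At 41 to 138 counts per library of the 2 h head-thorax pool, ratios of Uro and NaPi-T between the exposure times carry counting intervals of 1.03 to 1.64 and 1.90 to 2.60.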

Other observations

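The nephrocytes, another excretory cell type of the fly, filter the haemolymph and take up protein through the receptor formed by cubilin and amnionless. Of 6 nephrocyte genes tested, the 3 that encode this receptor system were lower in head-thorax after 26 h than after 2 h, where 1.5% of all genes tested were lower. None was higher by the 2-fold rule of edgeR or by DESeq2, and 2 were higher at an unadjusted p under 0.05 by either tool, against 23% of all genes by edgeR and 19.3% by DESeq2. Cubn, a cubilin, went from 643 and 463 counts at 2 h to 249 and 294 at 26 h (20.6 to 9.09 CPM, log2 ratio −1.17, adjusted p = 4.59e-25, edgeR), and Cubn2 from 10.6 to 2.58 CPM (−2.02, adjusted p = 1.41e-26, edgeR). Amnionless went from 217 and 172 counts to 42 and 51 (−2.21, adjusted p = 4.05e-23, edgeR), and shares 1041 bp of exon with asRNA:CR46263, whose counts were close to its own. Cubn did not pass when 2-fold was the null of the test (adjusted p = 0.108), and Cubn2 and Amnionless held their calls under every alternative run. The nephrocyte diaphragm gene sns (−0.05), kirre (0.22) and the multiligand receptor gene mgl (0.30) were not called, and Klf15, with 5 to 7 counts per pool, was not tested. In abdomen Cubn, Cubn2 and Amnionless were at 18.3, 10.1 and 4.07 CPM. sns was higher there than in the 2 h head-thorax pool (log2 ratio 1.61), and its 4050 abdomen counts stand beside 3893 for CG30350, whose span overlaps it with 0 bp of shared exon.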
